A study of Mus musculus with 28 samples.

Results

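The 10 genes described here encode actin and the proteins that coat, pull on and tie together its filaments: the actins Actb and Actg1, the tropomyosins Tpm1, Tpm2 and Tpm4, the myosin II chains Myh9 and Myl9, and the filament binders Flna, Actn1 and Tagln2. They were taken by gene name, and all 10 were found among the 29413 genes of the BMP table, the 55416 of the TGFb table and the 55416 of the mesenchymal table. The study measured mRNA by sequencing in 28 samples. Of these, 26 were organoids, which are epithelial cultures grown in a gel from crypts of the small intestine of wild-type C57BL/6 mice, and all were kept in ENR medium. The BMP table held 4 untreated samples, 4 with recombinant Bmp2, and 3 for every one of Bmp3, Bmp4, Bmp5 and Bmp7, and the TGFb table held 3 untreated samples and 3 given recombinant Tgfb. Each ligand was used at 500 ng/ml for 24 h, and no group combined ligands. The mesenchymal table held 1 sample of fresh PdgfraH2BeGFP cells from the duodenum and 1 sample of such cells immortalised with the E6 gene of HPV16, selected with puromycin and sorted for high eGFP. These mesenchymal cells serve as context only, since neither has a replicate and the immortalised cells had been selected and expanded.

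Actin monomers assemble into filaments, and in enterocytes these filaments fill the microvilli of the brush border, line the cell cortex and form a belt at the cell junctions. Tropomyosins lie along the filament and set which other proteins can bind it. Non-muscle myosin II pulls filaments past each other, its regulatory light chain switches this on when phosphorylated, and filamins and actinins crosslink filaments into networks or bundles. Bone morphogenetic proteins (BMPs) and Tgfb are secreted ligands that signal through receptor kinases to Smad transcription factors, and in the intestine BMP signalling is known to be stronger towards the villus.

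Depth in the BMP table was 21356032 to 24786375 reads per library. The unit of that table is the normalized count, and a single read came to between 0.826 and 1.28 of them. Summed over all genes and set against the control mean, normalized counts came to 1.38 ± 0.0594 in BMP2 samples (SD, n = 4) and 1.32 ± 0.0355 in BMP4 samples (SD, n = 3), so a level there depends on the authors' scaling. The TGFb and mesenchymal tables are in TPM, a level per transcript length scaled to a fixed total, and keep no depth. Smooth muscle cells are the other cell type in the gut wall richest in these transcripts. Of the 7 smooth muscle markers, Myh11, Actg2, Des, Cnn1, Synpo2 and Tagln stayed at or under 9.12 normalized counts in all 20 samples of the BMP table, and Acta2 lay between 1.14 and 101. The sum of these markers was 4.13 to 30.2 normalized counts in controls, 15.4 to 51.9 with BMP2, 6.84 to 16.8 with BMP4, 19.2 to 44.9 with BMP5 and 16.4 to 109 with BMP7. The 7 fibroblast markers found of 9 summed to 136 to 221 normalized counts in controls, 71.7 to 93 with BMP2, 29.7 to 47.8 with BMP4, 139 to 189 with BMP5 and 71.7 to 108 with BMP7. Most of that sum is Vim, with means of 149 normalized counts in controls and 34.5 with BMP2, while Pdgfra went the other way, from a mean of 0.667 to 22.9, and Col1a1 from 5.93 to 15.9. The 6 epithelial markers summed to 99910 to 112380 normalized counts in controls, 542300 to 681900 with BMP2, 217400 to 298700 with BMP4, 179890 to 285570 with BMP5 and 215960 to 299300 with BMP7. In the TGFb table they summed to 2669 to 2917 TPM in controls and 8551 to 11112 TPM with Tgfb, and the smooth muscle markers to 0.172 to 0.281 TPM and 0.282 to 0.904 TPM. The epithelial sum was thus above controls with BMP2, BMP4, BMP5, BMP7 and Tgfb, and most cytoskeletal genes rose with each of these but BMP4. In the BMP table Krt8 was the largest part of that sum. Its means were 34100 normalized counts in controls, 285250 with BMP2 and 110000 with BMP4, while those of Cdh1 were 22875, 104250 and 27333. The part of all these markers in the results was not tested. In bulk RNA, fewer cells of a type and less RNA per cell cannot be told apart.

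Promoter windows were looked up because members of this set moved in opposite directions under the same ligand. Windows of 250 bases before the start, from RefSeq in GRCm38.p6, were found for 9 of the 10 genes. The CArG box, the site read by serum response factor at many actin genes, occurs in 2 of these 9 windows and in 1.47% of 32851 windows of this length. The holders are Actg1 (chr11:120348496-120348745, minus strand) and Myl9 (chr2:156775214-156775463, plus strand). Their sequences are given with those of Flna (chrX:74246535-74246784, minus strand) and Tpm1 (chr9:67049214-67049463, minus strand), which both hold CATTCC, the core letters of the TEAD site. Capitals mark the CArG box in Actg1 and Myl9, GGCGCC in Actg1, and CATTCC or its complement GGAATG in Flna and Tpm1, and all run 5′ to 3′ on the gene's strand.
Actg1: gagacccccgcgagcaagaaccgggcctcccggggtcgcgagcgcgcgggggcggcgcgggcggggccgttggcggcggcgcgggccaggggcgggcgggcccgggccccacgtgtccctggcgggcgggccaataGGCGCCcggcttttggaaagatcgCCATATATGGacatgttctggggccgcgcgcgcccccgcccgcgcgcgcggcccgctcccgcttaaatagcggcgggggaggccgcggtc
Myl9: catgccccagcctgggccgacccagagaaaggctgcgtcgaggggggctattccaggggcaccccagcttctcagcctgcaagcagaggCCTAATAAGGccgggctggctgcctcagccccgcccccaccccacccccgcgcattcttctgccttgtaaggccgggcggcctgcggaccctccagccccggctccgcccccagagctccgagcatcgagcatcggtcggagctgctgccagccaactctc
Flna: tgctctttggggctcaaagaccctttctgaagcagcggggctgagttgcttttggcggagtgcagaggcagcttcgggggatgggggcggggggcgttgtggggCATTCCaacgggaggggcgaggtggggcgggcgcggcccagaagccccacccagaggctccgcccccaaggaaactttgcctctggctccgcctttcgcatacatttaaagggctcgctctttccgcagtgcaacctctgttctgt
Tpm1: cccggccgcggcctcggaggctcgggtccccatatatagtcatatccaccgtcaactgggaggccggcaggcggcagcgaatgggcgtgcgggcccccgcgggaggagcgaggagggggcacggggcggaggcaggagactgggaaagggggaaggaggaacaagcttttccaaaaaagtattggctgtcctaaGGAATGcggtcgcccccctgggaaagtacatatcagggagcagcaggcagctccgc
The box CCATATATGG lies 90 to 81 bases before the Actg1 start and CCTAATAAGG lies 161 to 152 bases before the Myl9 start. CATTCC on either strand was found in 3 of 9 windows (Tagln2, Tpm1 and Flna) and in 12.6% of all windows. GGCGCC, which reads the same on both strands and has been described at BMP-responsive genes, was found in 2 of 9 (Tagln2 and Actg1) and in 9.59% of all windows. The short Smad element CAGAC on either strand was found in 2 of 9 (Tagln2 and Myh9) and in 42.2% of all windows. The windows shown are 63.6% to 79.2% G and C, against a median of 52.4% over all windows. A match is a description of letters in a window and not a binding site.

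The first comparison asked how BMP2 moved these transcripts in the epithelium. With BMP2, 9 of the 10 rose and Myl9 fell, at an adjusted p under 0.05 in limma, beside 36.8% of all 14746 genes tested that rose and 38.4% that fell. The rises ran from 1.82 (Myh9) to 4.76 (Tpm2) on the log2(value + 1) scale, and the members' median change was 2.37 on that scale, against -0.03 over all genes tested. Each of the 9 lay above all controls in every BMP2 sample, as did 33.2% of all genes.

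Both actins rose with BMP2. Actb, the cytoplasmic beta-actin, was at 48900, 46000, 40700 and 48200 normalized counts in controls (numbers 2, 3, 4 and 6 in the titles) and at 249000, 263000, 223000 and 308000 with BMP2. The groups stand well apart, and the log2 change was 2.50 ± 0.17 (SE, limma adjusted p = 1.77e-10). Actg1, the cytoplasmic gamma-actin, was at 43000, 48900, 40800 and 49200 normalized counts in controls and at 174000, 215000, 187000 and 226000 with BMP2, a log2 change of 2.14 ± 0.16 (SE, limma adjusted p = 6.83e-10). Actg1 is the less certain of the pair, because 42.7% of its 75-base stretches (the read length) also occur in other genes, mostly the copy Gm12715. That copy was listed at 0 to 161 normalized counts in the BMP table.

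All 3 tropomyosins rose with BMP2. Tpm1, the most abundant of them per length, went from 7310, 6250, 6060 and 6610 normalized counts to 32800, 39100, 30100 and 32500, a log2 change of 2.36 ± 0.11 (SE, limma adjusted p = 9.74e-13). Tpm4, a mainly non-muscle tropomyosin, went from 5910, 4840, 3860 and 4320 to 25000, 29200, 20600 and 26700 normalized counts, a log2 change of 2.43 ± 0.13 (SE, limma adjusted p = 7.61e-12). For Tpm4, 9.44% of its 75-base stretches are shared with Gm7809, which was listed at no more than 4.54 normalized counts. Tpm2, known mainly from muscle, started far lower, at 33.7, 14.1, 13.3 and 60.3 normalized counts, and stood at 683, 766, 414 and 1140 with BMP2. Its log2 change of 4.76 ± 0.50 (SE, limma adjusted p = 6.53e-08) was the largest of the set, although its replicates also spread most among the genes that rose.

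The myosin chains went opposite ways. Myh9, the heavy chain of non-muscle myosin IIA, went from 14400, 12400, 16000 and 10700 normalized counts to 46100, 43700, 53500 and 43500, a log2 change of 1.82 ± 0.12 (SE, limma adjusted p = 1.08e-10). Myl9, a regulatory light chain best known from smooth muscle, was at 120, 47.3, 14.2 and 27.3 normalized counts in controls and at 3.41, 0, 1.18 and 1.27 with BMP2. The lowest control was therefore above the highest BMP2 sample, which was also true of 34.4% of all genes. Over the group the BMP2 samples held 5 Myl9 reads against 241 in controls, 34.1 times fewer after scaling by the authors' size factors, with a 95% interval of 14.4 to 106 that covers counting error only, and 46.8 times fewer per total reads. Control number 2 held 135 of the 241 reads, and without it the ratio was 19.8. BMP2 number 2 held 3 of the 5 reads, and without it the ratio was 62.5. The fitted log2 change was -4.20 (limma adjusted p = 3.25e-05), and its size depends on the pseudocount because the counts are so low.

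The filament binders rose together. Flna, filamin A, which crosslinks filaments and anchors them to the membrane, went from 3270, 2410, 3420 and 1760 normalized counts to 29600, 28000, 34900 and 21300. Its log2 change of 3.42 ± 0.21 (SE, limma adjusted p = 3.54e-11) was exceeded in the set only by that of Tpm2. Actn1, alpha-actinin 1, which bundles filaments, went from 5820, 5330, 5840 and 5220 to 25400, 29500, 30700 and 30600 normalized counts, a log2 change of 2.38 ± 0.14 (SE, limma adjusted p = 1.54e-11). Tagln2, a small calponin-family actin binder, went from 5410, 5040, 5050 and 5210 to 21000, 23100, 21600 and 26600 normalized counts, a log2 change of 2.15 ± 0.13 (SE, limma adjusted p = 3.35e-11).

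**Figure D1:**
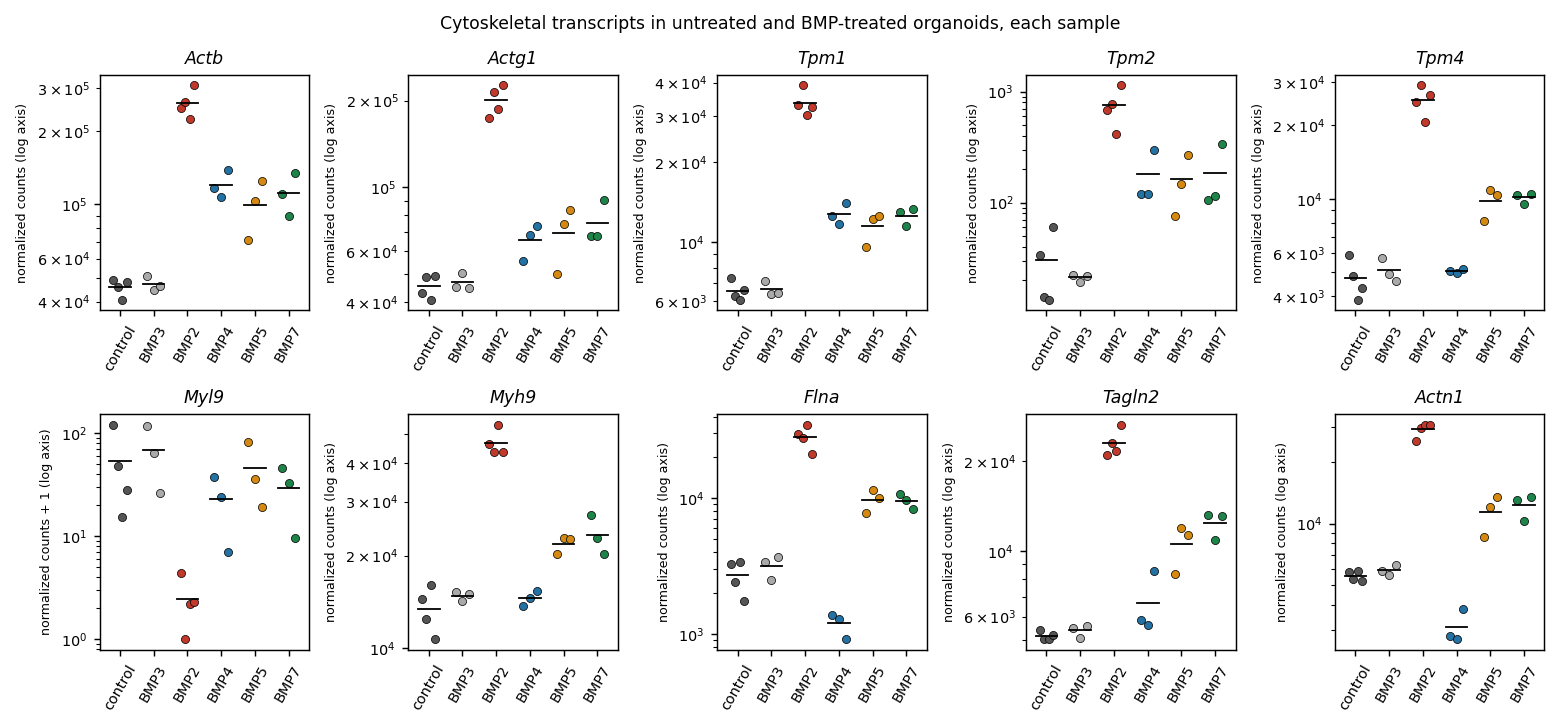
Normalized counts (log axis, Myl9 plus 1) of the 10 genes in each of the 20 samples of the BMP table, by group, with points for samples and a line at the group mean. BMP2 samples lie above all others in 9 panels and lowest for Myl9, while the BMP4 samples lie below all controls for Flna and Actn1.

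BMP4 moved members in both directions, as it did genes over the whole table. It raised 5 members (Actb, Actg1, Tpm1, Tpm2 and Tagln2) and lowered 2 (Flna and Actn1). Tpm4, Myh9 and Myl9 did not pass the limma threshold. Over all genes 33.7% rose and 31.4% fell with BMP4. The members' counts depend on the scaling. With samples set to the same total 3 members rose and 3 fell, and after quantile normalization 3 rose and 4 fell. The members' median log2 change was 0.24, against 0.04 over all genes tested, and it was -0.16 with totals made equal and -0.29 under quantile normalization. The same 5 genes lay above all controls in every BMP4 sample and the same 2 below all of them, as did 33.8% and 31% of all genes.

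Among actins and tropomyosins under BMP4 (numbers 2, 3 and 6), Actb was at 117000, 107000 and 138000 normalized counts, a log2 change of 1.39 ± 0.18 (SE, limma adjusted p = 2.67e-06). Actg1 was at 55500, 68200 and 73600 normalized counts, a change of 0.53 ± 0.17 (SE, limma adjusted p = 0.0126). This Actg1 change was 0.13 at the same total (limma adjusted p = 0.489) and -0.24 under quantile normalization. Without number 6 its limma adjusted p was 0.0619. Tpm1 was at 12500, 11700 and 14100 normalized counts, a change of 0.96 ± 0.11 (SE, limma adjusted p = 6.56e-07). The actins and Tpm1 thus lay above controls but well under their BMP2 levels. Tpm2 was at 120, 120 and 298 normalized counts, a change of 2.65 ± 0.54 (SE, limma adjusted p = 0.000274). Tpm4 was at 5050, 4960 and 5180 normalized counts, within the control range, with a change of 0.12 and a 95% interval of -0.18 to 0.41, and this sign turned when samples were set to the same total (-0.28) or quantile normalized (-0.35).

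Flna under BMP4 was at 1390, 1290 and 918 normalized counts, where the lowest control was 1760. Flna fell by 1.15 ± 0.22 on the log2 scale (SE, limma adjusted p = 0.000178), the opposite of its rise with BMP2. Actn1 was at 2790, 2710 and 3810 normalized counts, below its lowest control of 5220, and fell by 0.85 ± 0.15 on the log2 scale (SE, limma adjusted p = 4.74e-05). Both crosslinkers therefore fell in samples in which both actins rose under the deposited scaling. Tagln2 was at 5830, 5640 and 8530 normalized counts, of which number 6 stands apart. Its change of 0.34 ± 0.14 (SE, limma adjusted p = 0.0414) was 0.15 with an adjusted p of 0.338 without number 6. The call held in 7 of 18 alternatives, and was also lost without any of the 4 controls (adjusted p = 0.0501 to 0.0767), with TMM factors (0.132), in edgeR (0.107), without a filter (0.0703) and with only the 2 groups fitted (0.0576). Setting all samples to the same total turned it to -0.06, and quantile normalization to -0.15. Myh9 was at 13700, 14600 and 15400 normalized counts, inside the control range, with a change of 0.14 and a 95% interval of -0.13 to 0.41 under the deposited scaling, of -0.26 at the same total and of -0.47 after quantile normalization. Myl9 was at 36.7, 22.8 and 5.98 normalized counts, overlapping the controls, with a log2 change of -1.11 (limma adjusted p = 0.22). With the replicate number as a block, Myl9 was called lower with BMP4, at -1.37 (limma adjusted p = 0.0133).

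BMP5 and BMP7 gave nearly the same picture as each other. Each raised 9 of the 10 genes and left Myl9 short of the limma threshold, beside 16.5% of all genes that rose with BMP5 and 19.2% with BMP7, and 9.87% and 13.2% that fell. Without number 3 or number 6 of BMP5, 8 members rose, because Actg1 had adjusted p-values of 0.09 and 0.128. The members' median log2 change was 1.01 with BMP5 and 1.13 with BMP7, against -0.03 and -0.05 over all genes. The same 9 lay above all controls, as did 19.3% of all genes with BMP5 and 21.6% with BMP7, while 16.4% and 20.8% of all genes lay below all controls.

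Flna was at 7810, 11500 and 9980 normalized counts with BMP5 (numbers 2, 3 and 6) and at 10800, 9710 and 8360 with BMP7, changes of 1.88 ± 0.22 and 1.87 ± 0.22 (SE, limma adjusted p = 7.12e-06 and 4.93e-06). Actn1 was at 8570, 12100 and 13500 normalized counts with BMP5 and at 13100, 10300 and 13600 with BMP7, changes of 1.01 ± 0.15 and 1.14 ± 0.15 (SE, limma adjusted p = 4.91e-05 and 9.74e-06). The crosslinkers that fell with BMP4 thus rose with both of these ligands. Tagln2 was at 8360, 11900 and 11300 normalized counts with BMP5 and at 13200, 10900 and 13100 with BMP7, changes of 1.01 and 1.25. Myh9 was at 20200, 22800 and 22600 normalized counts with BMP5 and at 27200, 22900 and 20200 with BMP7, changes of 0.72 and 0.81.

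Actb was at 71600, 103000 and 125000 normalized counts with BMP5 and at 110000, 89900 and 134000 with BMP7, changes of 1.09 and 1.26. Actg1 changed by 0.59 with BMP5 and 0.72 with BMP7, and Tpm1 by 0.80 and 0.94. No Actb sample of either group reached down to a control. Tpm4 was at 8120, 10900 and 10400 normalized counts with BMP5 and at 10400, 9490 and 10500 with BMP7, changes of 1.06 and 1.11. Tpm2 was at 75.3, 146 and 267 normalized counts with BMP5 and at 105, 114 and 335 with BMP7, changes of 2.47 ± 0.54 and 2.62 ± 0.54 (SE, limma adjusted p = 0.00215 and 0.00103). Myl9 was at 81.6, 35.2 and 18.2 normalized counts with BMP5 and at 44.5, 31.9 and 8.66 with BMP7, both overlapping controls, with 95% intervals of the change of -1.67 to 1.58 and -2.34 to 0.92.

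With BMP3, no member passed the limma threshold. No gene of the 14746 tested did either (0%). At an unadjusted p under 0.05 there were 110 genes in limma, while edgeR called 0 and DESeq2 called 1 after adjustment. All 10 members overlapped the controls, in a table where 1.43% of all genes lay fully above and 1.1% fully below. Flna was at 3370, 2500 and 3680 normalized counts (numbers 2, 3 and 4) and Actb at 50900, 44800 and 46400. For the 8 genes besides Tpm2 and Myl9 the log2 changes ran from 0.02 to 0.26, and their 95% intervals reached from -0.34 to 0.73. Tpm2 (22.2, 19.4 and 21.9 normalized counts) and Myl9 (116, 63.4 and 25.4) were too variable for narrow bounds, with 95% intervals of the log2 change of -1.36 to 0.90 and -1.08 to 2.18.

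**Figure D2:**
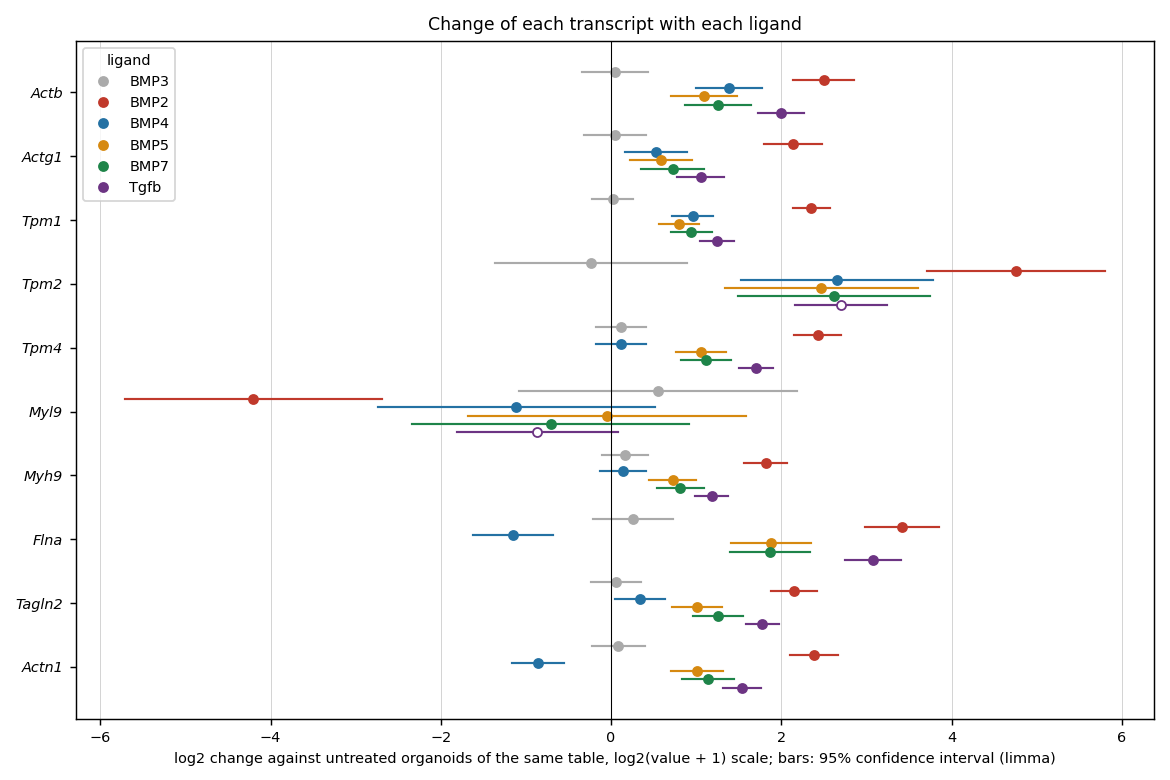
Log2 change of each gene with each ligand against the untreated organoids of its own table, with 95% confidence intervals from limma; open symbols are the 2 genes of the TGFb table tested only at the lower filter. BMP2 gives the largest rise in every row but Myl9, and BMP4 falls on the other side of 0 from the remaining active ligands for Flna and Actn1.

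Differences between ligands were tested directly. BMP2 exceeded BMP4 for 9 members and lay below it for Myl9, beside 33.4% of all genes higher and 33.4% lower. The gap was largest for Flna, 4.57 ± 0.22 on the log2 scale (SE, limma adjusted p = 5.47e-12), followed by Actn1, 3.24 ± 0.15 (SE, limma adjusted p = 2.19e-12), and smallest for Actb, 1.11 ± 0.18 (SE, limma adjusted p = 3.24e-05). BMP2 also exceeded BMP7 for the same 9 members and lay below it for Myl9, beside 31.4% of all genes higher and 31.4% lower, with differences of 0.90 (Tagln2) to 2.14 (Tpm2) for the 9. Actb missed the threshold there under quantile normalization, with 0.22 and an adjusted p of 0.229.

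BMP4 lay below BMP7 for 5 members, beside 31.4% of all genes lower and 28.4% higher. They were Flna (-3.02 ± 0.24, SE, limma adjusted p = 7.3e-09), Actn1 (-2.0 ± 0.16), Tpm4 (-1.0 ± 0.15), Tagln2 (-0.92 ± 0.15) and Myh9 (-0.68 ± 0.14). For Actb the difference was 0.13 with a 95% interval of -0.29 to 0.54, and for Tpm1 it was 0.02 with an interval of -0.24 to 0.27, though both came out lower with BMP4 after quantile normalization (-0.46 and -0.50). Both actins, Tpm1, Tpm2 and Myl9 were not called under the deposited scaling, and 8 members were called after quantile normalization. At the same total 7 members were called lower, among them Actg1 (-0.53, limma adjusted p = 0.0109) and Tpm1 (-0.31, limma adjusted p = 0.0134). BMP5 and BMP7 differed for 0 members and for 0.0136% of all genes (2 genes). Over the 8 members besides Tpm2 and Myl9, the 95% intervals of the BMP5 minus BMP7 difference reached from -0.59 to 0.51 on the log2 scale. These are the outermost bounds, and single genes had narrower intervals, such as -0.40 to 0.11 for Tpm1. A gap inside a gene's own interval is not excluded.

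The Tgfb comparison used organoids of a separate table. All 8 members with a mean of at least 10 TPM rose in limma, beside 31.4% of the 7880 genes tested that rose and 32.9% that fell, with a median log2 change of 1.62 against -0.01 over all genes. Of the 10 members, 9 lay above all 3 controls in every Tgfb sample and Myl9 lay below them. Of the 7880 genes tested, 34.4% lay above all controls and 35.3% below. Tpm2 and Myl9 lie under the filter and are not among those genes. Summed over the 10 genes, they held 0.508% of all TPM in controls and 1.67% with Tgfb. Most of this sum is Actb, with 2874 of 5080 TPM in controls and 11482 of 16714 TPM with Tgfb.

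Actb was at 2742, 2874 and 3007 TPM in controls and at 10638, 11230 and 12579 with Tgfb, a log2 change of 2.0 ± 0.11 (SE, limma adjusted p = 8.85e-06). Actg1 was at 1343, 1497 and 1538 TPM in controls and at 2752, 2971 and 3370 with Tgfb, a change of 1.05 ± 0.11 (SE, limma adjusted p = 0.000197). Flna was at 13.4, 12.7 and 12.4 TPM in controls and at 133, 92.3 and 127 with Tgfb, a change of 3.08 ± 0.14 (SE, limma adjusted p = 3.86e-06). Flna thus led the 8 tested members here. Tpm4 rose by 1.70 on the log2 scale, Tagln2 by 1.78, Actn1 by 1.54, Tpm1 by 1.24 and Myh9 by 1.18.

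Tpm2 and Myl9 lay under the filter. Tpm2 was at 0.463, 1.17 and 0.754 TPM in controls and at 8.63, 9.57 and 14.1 with Tgfb. Myl9 was at 0.745, 3.39 and 1.16 TPM in controls and at 0.657, 0.468 and 0.114 with Tgfb. When the filter was lowered to a mean of 1 TPM (12959 genes), Tpm2 rose by 2.70 ± 0.22 on the log2 scale (SE, limma adjusted p = 0.000135) and Myl9 had a change of -0.87 ± 0.39 (SE, limma adjusted p = 0.102). At these low levels the pseudocount of 1 shrinks both fitted changes. Mean TPM with Tgfb was 13.5 times that of controls for Tpm2, against 9.14 times for Flna. For Myl9 the control mean was 4.27 times the Tgfb mean. With BMP2 as with Tgfb, all treated samples had more Tpm2 and less Myl9 than any control of their own table, but the tables were scaled separately and no test across them was run.

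TPM lets levels of different genes be compared. In untreated organoids Actb (2874 ± 132 TPM, SD, n = 3) was the 29th most abundant of all genes and Actg1 (1459 ± 103 TPM) the 98th. Next came Tpm1 (224 ± 10.8 TPM), Tagln2 (189 ± 9.54 TPM), Myh9 (116 ± 7.77 TPM), Actn1 (102 ± 2.84 TPM) and Tpm4 (100 ± 6.90 TPM), whose last 2 ranges overlap. Flna (12.8 ± 0.521 TPM), Myl9 (1.76 ± 1.42 TPM) and Tpm2 (0.794 ± 0.353 TPM) closed the order, and the ranges of the last 2 overlap too.

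In the mesenchymal cells the order was different. Myl9, nearly silent in the organoids, stood at 1763 TPM in the fresh sample and 2321 TPM in the immortalised one, and Tpm2 at 961 and 1216 TPM. Flna was at 1319 and 1387 TPM, Tpm1 at 2871 and 2600 TPM and Tpm4 at 1024 and 1479 TPM. These 5 lay far above both organoid groups, whereas Tagln2, at 339 and 218 TPM, lay below its level with Tgfb (652 ± 34.5 TPM, SD, n = 3). Actb, at 10402 and 14900 TPM, and Actg1, at 2854 and 3452 TPM, lay on either side of their Tgfb means (11482 and 3031 TPM). Myh9 (351 and 514 TPM) and Actn1 (761 and 480 TPM) lay above theirs (263 and 299 TPM). Markers of mesenchymal cells were present, with Vim at 1830 and 1976 TPM and Acta2 at 5112 and 7499 TPM. Of the 6 epithelial markers, Cdh1, Cldn7 and Vil1 were listed at 0 in both samples, and the fresh sample held Krt18 at 19.2 TPM and Krt8 at 9.10 TPM. There is 1 sample of each kind, so these differences have no replicate check and no test.

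**Figure D3:**
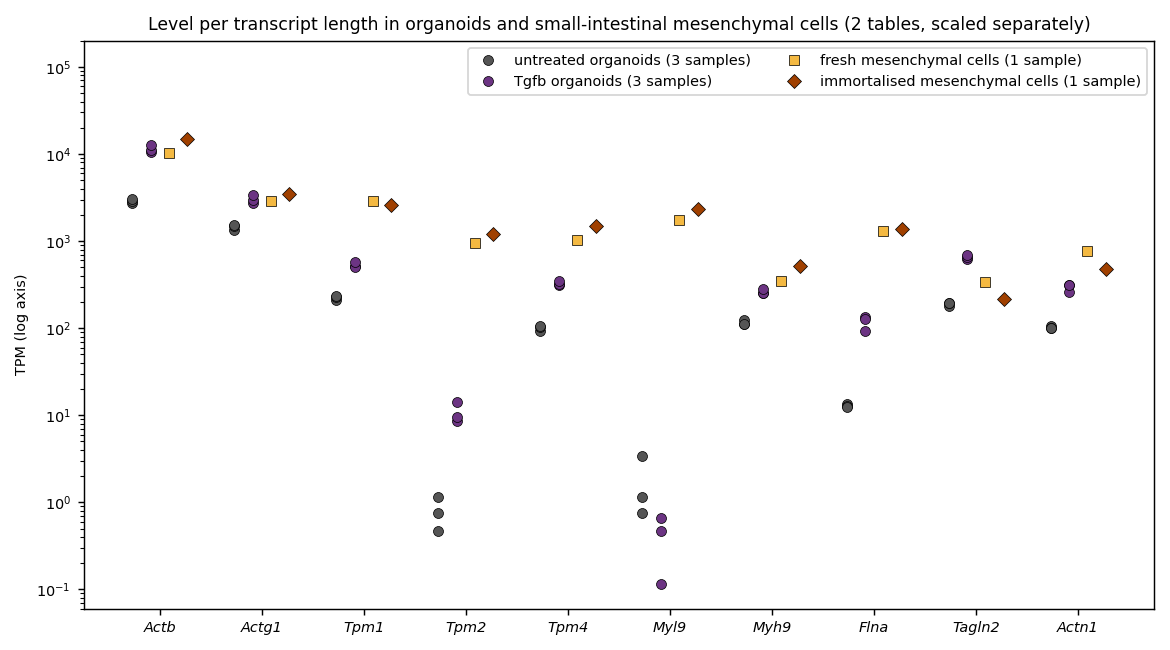
TPM (log axis) of the 10 genes in untreated and Tgfb-treated organoids (circles, 3 samples each) and in the 2 mesenchymal samples (square and diamond), which come from a separately scaled table. Myl9 and Tpm2 show the widest gap, with 0.114 to 3.39 TPM of Myl9 in organoids and 1763 and 2321 TPM in mesenchymal cells.

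Ratios within a sample do not depend on the scaling between samples. The ratio of Actb to Actg1 normalized counts was 1.01 ± 0.0856 in controls (SD, n = 4) and 1.02 ± 0.118 with BMP3 (SD, n = 3). It was higher in the other 4 groups, at 1.85 ± 0.270 under BMP4, 1.47 ± 0.146 under BMP7, 1.43 ± 0.0583 under BMP5 and 1.30 ± 0.113 under BMP2, and every sample of these 4 groups lay above every control. In the TGFb table the ratio of TPM values was 1.97 ± 0.0631 in controls and 3.79 ± 0.0674 with Tgfb (SD, n = 3 each), and the mesenchymal cells had 3.65 and 4.32. The ratio was thus higher than in controls with BMP2, BMP4, BMP5, BMP7 and Tgfb, the ligands with changed members. The ratio values are a description, without a test, and Actg1 carries the shared stretches named above.

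The ratio of Tpm4 to Tpm1 set BMP4 apart. It was 0.404, 0.424 and 0.367 in the BMP4 samples and at least 0.637 in each control, where the mean was 0.718 ± 0.0858 (SD, n = 4). BMP2 (0.754 ± 0.0564) and BMP7 (0.805 ± 0.0184) overlapped controls, and BMP5 (0.856 ± 0.0346) lay above them. This ratio of TPM values was 0.447 ± 0.0111 in controls of the TGFb table and 0.615 ± 0.0189 with Tgfb (SD, n = 3 each), with no overlap. The ratio of Tpm2 to Tpm1 stayed small in all organoids, at 0.00455 ± 0.00325 in controls and 0.0223 ± 0.00905 with BMP2 by normalized counts. By TPM it was 0.00352 ± 0.00151 in controls and 0.0201 ± 0.00407 with Tgfb (SD), against 0.335 and 0.468 in the mesenchymal cells. The ratio of Flna to Actn1 was 0.484 ± 0.114 in controls and lay above them under BMP7 (0.794 ± 0.166), BMP5 (0.867 ± 0.112) and BMP2 (0.987 ± 0.216). Under BMP4 it was 0.405 ± 0.143 and overlapped controls, so these crosslinkers fell together there.

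**Figure D4:**
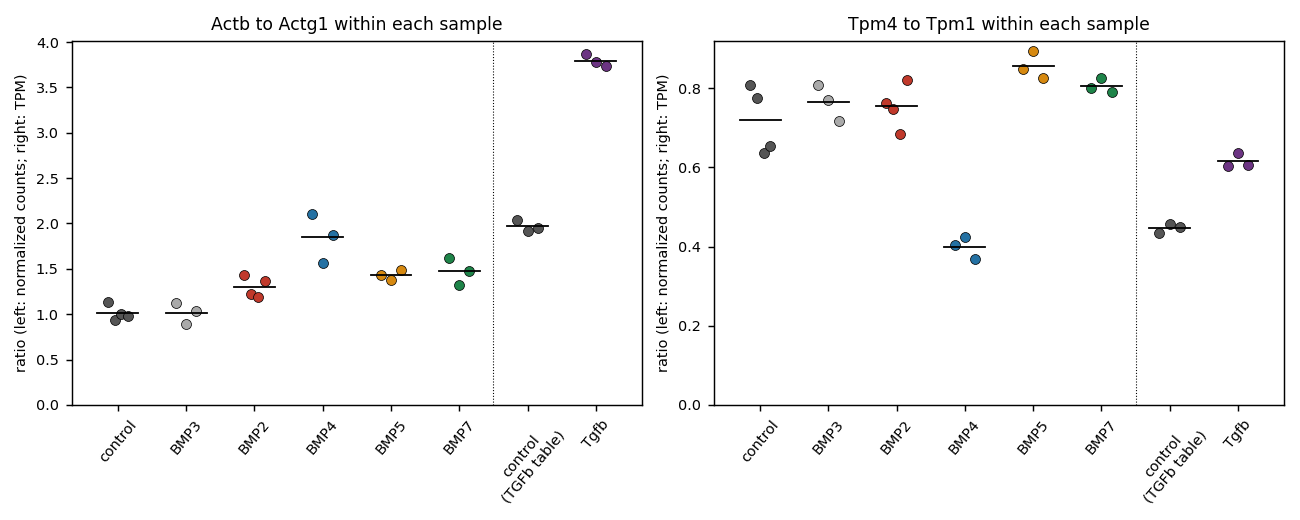
Actb to Actg1 (left panel) and Tpm4 to Tpm1 (right panel) within each sample, from normalized counts left of the dotted line and TPM right of it, with a line at each group mean. BMP4 has the highest mean actin ratio of the BMP table (1.85) and its Tpm4 to Tpm1 ratio (0.398) lies below all other groups of that table.

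Several members also followed the number in the sample title, abundant ones as well as the 2 least abundant. Myl9 was highest in number 2 in all 6 groups of the BMP table, and Tpm2 was highest in number 6 in all 5 groups that have that number. Flna was lowest in number 6 in 4 of 5 such groups, and Actg1 was highest in number 6 in all 5. Flna and Actn1 were highest in number 4 in all 3 groups that have it. This pattern was looked for after the values were seen, and the share of all genes with such an order was not counted. It is not particular to these members. Over all genes with a mean of at least 10, deviations from the group mean correlated over 0.1 in 39 of 43 same-number pairs of samples. Among pairs of unlike numbers, 8 of 123 did. The labels do not say what a number stands for, so whether it marks a culture, an animal or a day cannot be told.

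**Figure D5:**
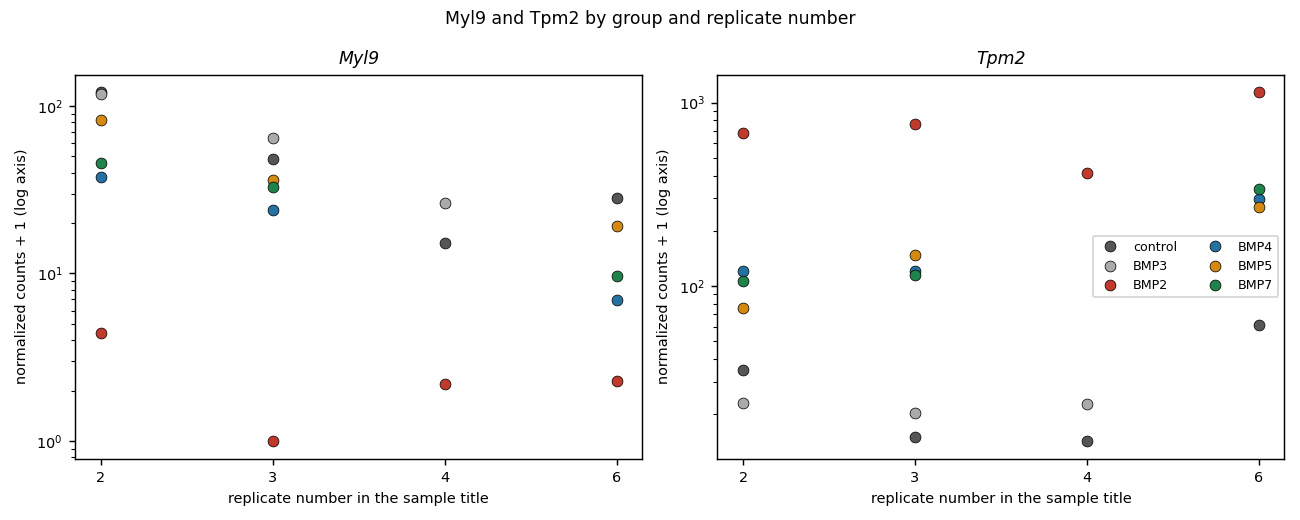
Normalized counts plus 1 (log axis) of Myl9 and Tpm2 against the replicate number in the title, colored by group. Number 2 holds the highest Myl9 value and number 6 the highest Tpm2 value of each group in which they occur.

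Other genes of the same machinery were counted from lists. With BMP2, all 9 genes tested from the myosin activation list rose, led by the small GTPases Rhob (5.17 on the log2 scale) and Rhoc (3.09). That list also holds Ppp1r12a and Ppp1cb, subunits of the phosphatase that acts against this activation. Its counts, for any ligand, therefore give no direction of myosin activity. All 12 of the focal adhesion plaque rose, with Pdlim7, a LIM protein on filaments, at 5.05, and 16 of 18 actin turnover genes rose, among them the capping protein Capg (3.87) and the severing protein Gsn (3.12), while the cofilin kinase Limk2 fell by 0.87. Of 10 crosslinkers and binders tested, 8 rose and 0 fell, with the bundler Fscn1 at 3.63. Of 5 myosin II chains, 4 rose, with the light chain Myl12a at 2.40 and Myl6 at 1.66. These other light chains rose where Myl9 fell. Of 3 other actins and tropomyosins tested, 2 rose, Tpm3 (1.74) and the muscle actin Acta1 (1.45). Of 4 genes of the serum response factor axis 3 rose, led by Fhl2 (2.13) and Mrtfa (0.88), and of 10 brush border actin genes 9 rose, led by the adhesion link Cdhr2 (2.20) and ezrin, Ezr (1.92). These counts stand beside the 36.8% of all genes that rose. When samples were set to the same total, 6 brush border genes rose and 0 fell, and of the serum response factor axis 2 rose and 1 fell.

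With BMP4, beside 33.7% of all genes that rose and 31.4% that fell, all 9 myosin activation genes rose as well, here led by Mylk, the myosin light chain kinase (2.85), and 4 of 5 myosin II chains rose, led by the heavy chain Myh14 (1.64). Of the crosslinkers, 5 of 10 were higher, among them alpha-actinin 4, Actn4 (1.40). Another 3 were lower, among them the calponin Cnn3 (-3.21) and drebrin, Dbn1 (-3.30). The actinin genes therefore went both ways, since Actn4 rose where Actn1 fell. In the focal adhesion list 9 of 12 rose and Csrp1 fell (-1.40), and of 4 genes of the serum response factor axis 0 rose and 2 fell, Mrtfb (-0.79) and Fhl2 (-0.54). All 10 brush border actin genes rose, led by Espn (3.00) and Cdhr2 (2.47). At the same total the BMP4 counts were 8 of 9 for myosin activation, 3 of 5 higher and 1 lower for myosin II chains, 3 higher and 3 lower for the crosslinkers, 7 of 12 for focal adhesion, 4 of 4 lower for the serum response factor axis and 10 of 10 for the brush border. Between ligands, all 10 brush border genes were higher with BMP4 than with BMP7, beside 28.4% of all genes, and 6 of 10 were lower and 1 higher with BMP2 than with BMP4, beside 33.4% of all genes each way.

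With BMP5 and BMP7, beside 16.5% and 19.2% of all genes that rose, 4 of 10 brush border genes rose in each, and 7 and 8 of 9 myosin activation genes did, led by Rhob (3.04 and 3.34). All 12 focal adhesion genes rose in both, led by Pdlim7 (3.07 and 3.26), and of the crosslinkers 7 of 10 rose in each, led by caldesmon, Cald1 (2.47 and 2.54). With BMP7, Cnn3 (-0.39) and Limk2 (-0.35) fell. With Tgfb, beside 31.4% of all genes that rose and 32.9% that fell, all 12 focal adhesion genes rose, 16 of 17 actin turnover genes rose and Limk2 fell by 0.28 (not called with TMM factors), and 8 of 9 myosin activation genes rose, with Rhob at 4.45. Of 6 crosslinkers tested with Tgfb 5 rose, among them plastin 3, Pls3 (2.98), and Cnn3 fell by 0.65. Acta1, which rose with BMP2, fell by 0.95 with Tgfb (limma adjusted p = 0.00675). The comparisons within the BMP table share their controls, so the lists' counts for different ligands are not independent of each other.

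The genes most like the set were ranked by Pearson r to the mean profile of the 10 members over the 20 samples of the BMP table. The highest were Cdh1, E-cadherin (r = 0.997), Smox, spermine oxidase (0.996), Rtn4, a reticulon (0.996), Smurf1, a ubiquitin ligase (0.994), and Cadm4, a cell adhesion molecule (0.994). The level of Cdh1 in normalized counts was 22875 ± 1021 in untreated organoids and 104250 ± 3948 under BMP2 (SD, 4 samples in either group), and 27333 ± 929 under BMP4 and 46600 ± 4004 under BMP7 (SD, 3 samples in either group). Of the members themselves Tpm4 (0.990) and Tagln2 (0.989) followed the mean profile most closely, Tpm2 (0.885) least among those that rose with BMP2, and Myl9 had -0.752. The mean profile contains each member, which raises a member's own r, so members and other genes cannot be compared by r. All points share the same 20 libraries and their scaling, so these r values are a description.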

How the data were processed

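Expression was measured by mRNA sequencing. The BMP table holds a deposited signal, gene counts divided by 1 factor per sample, read from the values: of 180721 values at or under 20 reads, 100.0% were whole multiples of 1 step within 0.1 read. The TGFb and mesenchymal tables hold deposited TPM, since each column sums to the same total. Trim Galore, Salmon, DESeq2 and GRCm39 are named per the submitters' processing notes, and their versions, roles and the annotation are not given in the sources used here. Reads were 75 nt and single-end from more than 1 run, per the labels' protocols, with no sample assigned to a run. Groups came from the labels, 0 columns were left unmapped and 0 sample pairs held identical values.

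Tests used limma 3.58.1 (R 4.3.3) on log2(value + 1) for genes with a mean of at least 10, which left 14746 of 29413 genes (BMP table, 6 groups in 1 fit with an intensity trend) and 7880 of 55416 (TGFb table). The pseudocount of 1 understates the change of low genes. Tests were two-sided, p-values were Benjamini-Hochberg adjusted over all genes tested, and the threshold was 0.05. The labels do not say whether samples came from separate cultures or animals, so p-values measure the spread between these samples, which may be technical. The fit was tried on simulated data with few changed genes, equal scaling and no effect of the replicate number. That trial therefore does not cover the many changed genes, shifted totals and number effects of these tables. Alternatives were pseudocounts, filters, scalings, a replicate block, fits of 2 groups, leaving out each sample, and edgeR 4.0.16 and DESeq2 1.42.0 on the recovered reads. Leaving out samples for the within-sample ratios and for the ratio of Myl9 reads, and scaling the latter to total reads, were added after seeing the data.

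The members and lists were chosen with earlier results of these data known. Named were all 10 members, up to 2 genes per list and direction with the largest called change, and the 5 genes of highest r to the members' mean profile. Some genes that this rule picks are not reported here. The 8 lists were other actins and tropomyosins, myosin II chains, myosin activation, crosslinkers and filament binders, actin turnover, focal adhesion plaque, serum response factor axis and brush border actin. Whether equal numbers in the titles pair samples was checked by the correlation of their deviations from the group means. Every same-number pair correlated over 0.1 for BMP3, BMP4, BMP5 and BMP7 against control (lowest 0.158), BMP4 against BMP7 and BMP5 against BMP7, so the numbers were taken to pair those samples. The main fits held no block for these numbers, and fits with it were run as alternatives. Matches of 75-base stretches used GENCODE M21 transcripts.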

Additional observations from a re-analysis of the deposited data

How the results depend on the processing

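Counts of members changed stayed within 1.5 times their main value under every alternative run, except BMP4 against BMP7, with 8 after quantile normalization instead of 5. With the replicate block, 1 call on a member changed (Myl9 with BMP4, adjusted p = 0.0133), and the genes that differed between BMP5 and BMP7 went from 2 to 6; the block changed no other member's call. For pairs whose numbers did not all correlate (BMP2 against control, against BMP4 and against BMP7, and Tgfb), the block left the members' counts at 10, 10, 10 and 8. The block raised the counts over all genes, to 3145 higher and 2593 lower with BMP5 (2429 and 1455 without it). For BMP7 they went from 2833 higher and 1940 lower to 3541 and 3148. The shares of all genes printed beside the members are those without the block.

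The BMP5 against BMP7 count was 0 with a pseudocount of 0.1 or a filter of 50, 4 with a pseudocount of 5, with no filter or in edgeR, 1 at the same total or after quantile normalization, 23 in DESeq2, and 0 to 9 when samples were left out. The BMP3 count was 6 with only those 2 groups fitted, 1 in DESeq2 and 0 to 1 when samples were left out. The BMP5 count (2429 genes higher and 1455 lower) was 2517 to 4301 when samples were left out, lowest without number 3 (2517) and number 6 (2531). The Tgfb count was 7855 without a filter, which adds genes.

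Of 1357 values for single members under an alternative, 29 changed sign. Under BMP4 at the same total, Tpm4 was -0.28, Myh9 -0.26 and Tagln2 -0.061, and after quantile normalization Actg1 was -0.24, Tpm4 -0.35, Myh9 -0.47 and Tagln2 -0.15. For BMP4 against BMP7, Actb was -0.20 at the same total and -0.46 after quantile normalization, Tpm1 -0.31 and -0.50, and Tpm2 -0.30 at the same total. There TMM gave Tpm1 -0.0875 and Tpm2 -0.0724, edgeR -0.0916 and -0.160, and DESeq2 -0.0308 for Tpm2. Leaving out samples gave -0.0169 to 0.271 for Actb, -0.0563 to 0.0783 for Tpm1, -0.40 to 0.57 for Tpm2 and -1.07 to 0.30 for Myl9 there, and -0.59 to 0.49 for Myl9 with BMP5. The cause was not tested.

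Setting samples to the same total moved the median of all genes to -0.49 with BMP2 and -0.35 with BMP4, and the share of called genes that were higher from 48.9% to 31.5% and from 51.7% to 30.9%. The members' counts there were 9 higher and 1 lower with BMP2 and 3 higher and 3 lower with BMP4, against 3 higher and 4 lower after quantile normalization. That share went from 62.5% to 49.8% with BMP5 and from 59.4% to 48.0% with BMP7 after quantile normalization, and at the same total from 50.1% to 26.5% for BMP2 against BMP7 and from 47.5% to 28.6% for BMP4 against BMP7. Low counts limit Myl9 and Tpm2.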
